A study of Mus musculus with 4 samples.

Results

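The 10 heat shock chaperones described here are Hspa1a, Hspa1b, Dnajb1, Dnaja1, Hsph1, Hsp90aa1, Hsp90ab1, Hspa8, Hspe1 and Hspd1. They were chosen by name, and all 10 were among the 31053 genes of the deposited count matrices. The cells were leukocytes sorted for CD45, the surface protein that marks blood-derived cells, isolated from total colon of C57BL/6 mice without a mutation (WT). One group of mice was held in restraint daily for 7 days, and the other was given the control treatment over the same time. Single-cell RNA was read on the 10x Genomics droplet platform in 2 control and 2 stress libraries, called control 1, control 2, stress 1 and stress 2. Age, sex and the number of mice behind a library are not given in the sources used here, so the spread between libraries may be partly technical.

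Heat shock chaperones are proteins that bind unfolded or damaged proteins and help them to fold. Heat shock factor 1 binds heat shock elements, which are short inverted repeats of GAA, in front of the inducible genes and switches them on within minutes of heat or oxidants. Other members are made all the time in every cell, at levels that follow how much protein the cell folds. The inducible Hsp70 proteins are encoded by Hspa1a and Hspa1b, and Hspa8 encodes the constitutive Hsp70. Dnajb1 and Dnaja1 encode J proteins, which bring clients to Hsp70 and start its ATP cycle, and Hsph1 encodes Hsp110, which exchanges the nucleotide of Hsp70. Hsp90aa1 and Hsp90ab1 encode the inducible and the constitutive Hsp90 of the cytosol. Hspd1 and Hspe1 encode the Hsp60 barrel of mitochondria and its Hsp10 lid.

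Hspa1a (ENSMUSG00000091971) lies at chr17:34969190-34972156 and Hspa1b (ENSMUSG00000090877) at chr17:34956436-34959238 of mm10, both on the minus strand and 9951 bases apart. Hsp90ab1 is on the same chromosome at chr17:45567775-45573271. Hspd1 (chr1:55077835-55088243, minus strand) and Hspe1 (chr1:55088132-55091307, plus strand) stand head to head and overlap by 112 bases. The other members are Dnaja1 at chr4:40722150-40737149, Hsph1 at chr5:149614287-149636376, Dnajb1 at chr8:83608193-83612653, Hspa8 at chr9:40800984-40810087 and Hsp90aa1 at chr12:110690605-110702728. All 10 are protein-coding genes in GENCODE vM21. The Hspa1a and Hspa1b transcripts are 84.4% identical over their aligned length, and 49.1% of the 91-base windows of Hspa1a occur unchanged in Hspa1b. In the last 400 bases of Hspa1a, where 3' reads would fall, 0% of such windows occur in Hspa1b.

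RefSeq's promoter table (build GRCm38.p6, which is mm10) held 7 of the 10 members in 12 windows. The pair motif of the heat shock element was searched as GAANNTTC or TTCNNGAA, each of which reads the same on both strands, in the 250 bases before each start. It was in windows of 6 of these 7 genes (7 of 12 windows), against 12.8% of all 32851 promoters. The longer motif GAANNTTCNNGAA, searched on both strands and overlapping the pair motif, was in the windows of Hspe1 and Hspd1 and in 0.466% of all promoters. The upstream bases of 4 genes are shown, with every pair motif in capitals, because they cover both Hspa1 genes, which define the high cells described further on, the shared Hspd1 and Hspe1 promoter with its repeated element, and Hsph1. Coordinates are chr17:34972157-34972406 for Hspa1a, chr17:34959239-34959488 for Hspa1b, chr1:55087898-55088147 for Hspe1 and chr5:149636316-149636565 for Hsph1, and each is read 5′ to 3′ on the strand of its gene.
Hspa1a: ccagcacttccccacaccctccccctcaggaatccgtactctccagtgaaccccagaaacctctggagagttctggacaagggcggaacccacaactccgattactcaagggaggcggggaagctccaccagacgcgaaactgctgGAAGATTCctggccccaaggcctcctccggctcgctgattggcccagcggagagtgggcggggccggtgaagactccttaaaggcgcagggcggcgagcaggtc
Hspa1b: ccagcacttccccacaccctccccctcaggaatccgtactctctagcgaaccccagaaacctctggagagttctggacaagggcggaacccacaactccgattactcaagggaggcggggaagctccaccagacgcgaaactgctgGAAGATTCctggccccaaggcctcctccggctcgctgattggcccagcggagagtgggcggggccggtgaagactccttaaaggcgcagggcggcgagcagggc
Hspe1: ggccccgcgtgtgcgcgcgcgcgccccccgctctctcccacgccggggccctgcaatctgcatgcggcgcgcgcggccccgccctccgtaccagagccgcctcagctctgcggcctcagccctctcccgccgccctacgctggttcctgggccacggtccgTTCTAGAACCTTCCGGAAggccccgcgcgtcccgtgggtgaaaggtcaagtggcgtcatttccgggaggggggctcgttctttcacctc
Hsph1: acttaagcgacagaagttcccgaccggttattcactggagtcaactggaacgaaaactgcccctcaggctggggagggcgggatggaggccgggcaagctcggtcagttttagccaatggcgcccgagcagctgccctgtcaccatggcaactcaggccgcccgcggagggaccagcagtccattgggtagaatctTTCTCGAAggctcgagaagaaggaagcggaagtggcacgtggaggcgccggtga
The Hspa1a and Hspa1b windows were 98.8% identical, and in both the motif began 104 bases before the start. Hspe1 carried 3 overlapping pairs, the first 89 bases before its start, and the Hspd1 window held the same stretch read from the other strand, beginning 144 bases before its start. In Hsph1 the pair began 54 bases before this start. Dnaja1 held a pair in 1 of its 3 windows, and neither Dnajb1 window held those letters.

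Of 24915 barcodes with at least 500 UMIs, 20476 had at most 10% mitochondrial UMIs and were kept, between 2562 and 8333 a library. Median depth was 2938, 2675, 2174 and 4547 UMIs a kept cell in control 1, control 2, stress 1 and stress 2, and barcodes over the mitochondrial limit were 12.9%, 11.1%, 18.8% and 26.0% of those libraries. Cells were placed in classes by marker genes, none of them a chaperone, and 17558 cells were placed. The libraries differed in makeup: control 1 held 221 fibroblasts, which should not carry CD45, against 1 to 7 in the other libraries. Any 2 libraries shared 3 to 19 barcodes. Chaperone levels are given as CPM, the UMIs of the gene in every 1000000 UMIs of a class in a library, log2 changes come from edgeR fits of summed counts, and a member passed where its edgeR quasi-likelihood adjusted p was below 0.05. A difference in such a level may come from more cells with the transcript or from more transcript per cell, and the share of high cells, given for each class, bears on this.

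The levels of the chaperones differed between cell classes. The members of the J protein, Hsp110 and mitochondrial groups were highest in T or NK cells, Hspa8 was highest in monocytes and macrophages, and plasma cells were lowest for each of the 10 in CPM. Each of 8 classes was set against the mean of the other 7, and 46 of the 80 pairs of member and class passed. Calls were common over all genes too: by class, 9.83% to 35.6% of the 9722 genes tested were higher and 7.27% to 29.6% lower.

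In CD8 T cells, 7 of the 10 members were higher than in the mean of other classes and 0 were lower, where 22.2% of all 9722 genes tested were higher and 16% lower. Hsph1 had the largest difference there, at 142 ± 31.2 CPM (SD, n = 4 libraries) and a log2 difference of 1.09 (SE 0.13, edgeR adjusted p = 4.91e-09). Its 4 values were 184, 110, 140 and 133 CPM, and in monocytes they were 20.1, 26.9, 42.8 and 28.0 CPM, so the classes did not overlap. Hspd1 was 0.86 higher on the log2 scale in CD8 T cells (SE 0.10) and Dnaja1 0.71 (SE 0.08). Hspe1 was 0.69 higher (SE 0.09), Dnajb1 0.57 (SE 0.11), Hsp90aa1 0.49 (SE 0.09) and Hsp90ab1 0.30 (SE 0.07). The same 7 members passed in other T cells, those with no or both of the CD4 and CD8 markers, where 20.9% of all genes were higher and 12.9% lower, with log2 differences from 0.23 for Hsp90ab1 to 0.75 for Hsph1. Hspe1 there, at 0.24, lost its call in 5 alternatives, and Hsp90ab1 lost it without control 1 and without stress 1. CD4 T cells had 2 higher members against 19.2% of all genes and 0 lower against 13%. They were Dnaja1 at 0.27 (SE 0.09) and Hsp90ab1 at 0.20 (SE 0.07). The Dnaja1 call was lost without control 2, and the Hsp90ab1 call with no filter on low counts and without stress 1. Among NK cells or ILC1, the innate lymphocytes, 1 member passed, Dnaja1 at 0.56 (SE 0.09), where 9.83% of all genes were higher and 7.27% lower. Dnaja1 thus split the classes: its level was 797 to 1015 CPM in the means of the 4 classes of T and NK cells and 408 to 440 CPM in B cells, monocytes and macrophages. CD4 T cells, the lowest of those 4, did not overlap with B cells, the next in order, while the 4 overlapped among themselves.

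For Hspa8 the highest classes by mean were monocytes and macrophages, while B cells and plasma cells were lowest. The monocyte level was 3473, 3096, 3506 and 3411 CPM, a mean of 3372 ± 188 (SD, n = 4), and the B cell level was 1840, 1524, 1965 and 1759 CPM. Every monocyte value lay above every B cell value. The log2 difference from the mean of other classes was 0.84 in monocytes (SE 0.08, edgeR adjusted p = 2.81e-13) and 0.58 in macrophages (SE 0.08). Macrophages came next at 2778 ± 387 CPM, and overlapped with both monocytes and CD8 T cells. Hspa1a was the other higher member in both myeloid classes, by 1.07 in macrophages (SE 0.33) and 0.83 in monocytes (SE 0.33). The macrophage call was lost without control 2 (0.62) and the monocyte call in 4 alternatives. These 2 higher members of monocytes stand against 29.3% of all genes, and those of macrophages against 29.8%. The other side was wider: 7 members were lower in monocytes, where 24.4% of all genes were lower, with Hsph1 at -1.07 (SE 0.19), Hspd1 at -0.86 (SE 0.13) and Dnajb1 at -0.80 (SE 0.14). The smaller differences of Hsp90aa1 and Hsp90ab1 there lost their calls without control 1 and without stress 1, and that of Hsp90ab1 also with no filter. In macrophages 2 members were lower against 20.4% of all genes, Dnaja1 at -0.47 and Hspd1 at -0.37, the latter not without stress 1.

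B cells were higher in 5 members and lower in 2, where 35.6% of all genes were higher and 24% lower. Hspe1 was 0.69 higher on the log2 scale (SE 0.08), with 532, 437, 572 and 527 CPM in the 4 libraries, second to CD8 T cells, which it overlapped. Hspd1, its partner, was 0.49 higher (SE 0.09). Hsph1 (0.37), Hsp90ab1 (0.29) and Hsp90aa1 (0.24) also passed, and Hsp90aa1 and Hsph1 lost the call in 4 and 2 alternatives. Lower in B cells were Dnaja1 at -0.53 (SE 0.09) and Hspa8 at -0.37 (SE 0.08).

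Plasma cells, which secrete antibody, were lower in 9 of the 10 members and higher in 0, where 29.6% of all genes were lower and 31% higher. Hspa8 was 439, 426, 424 and 409 CPM in plasma cells, below the lowest B cell value of 1524. Its log2 difference in the fit was -1.02 (SE 0.09, edgeR adjusted p = 6.84e-14). Hspa1b was -1.42 (SE 0.34), Hspa1a -1.31 (SE 0.39; not passing without stress 2, adjusted p = 0.0507 by edgeR) and Dnaja1 -0.85 (SE 0.09). Dnajb1, at -0.14 (SE 0.11), did not pass, although its CPM of 43.7 ± 5.51 was the lowest of the 8 classes. CPM counts immunoglobulin transcripts in the total while the fit rescales it, and without the immunoglobulin genes the fitted values were nearly the same, such as -1.02 for Hspa8.

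**Figure D1:**
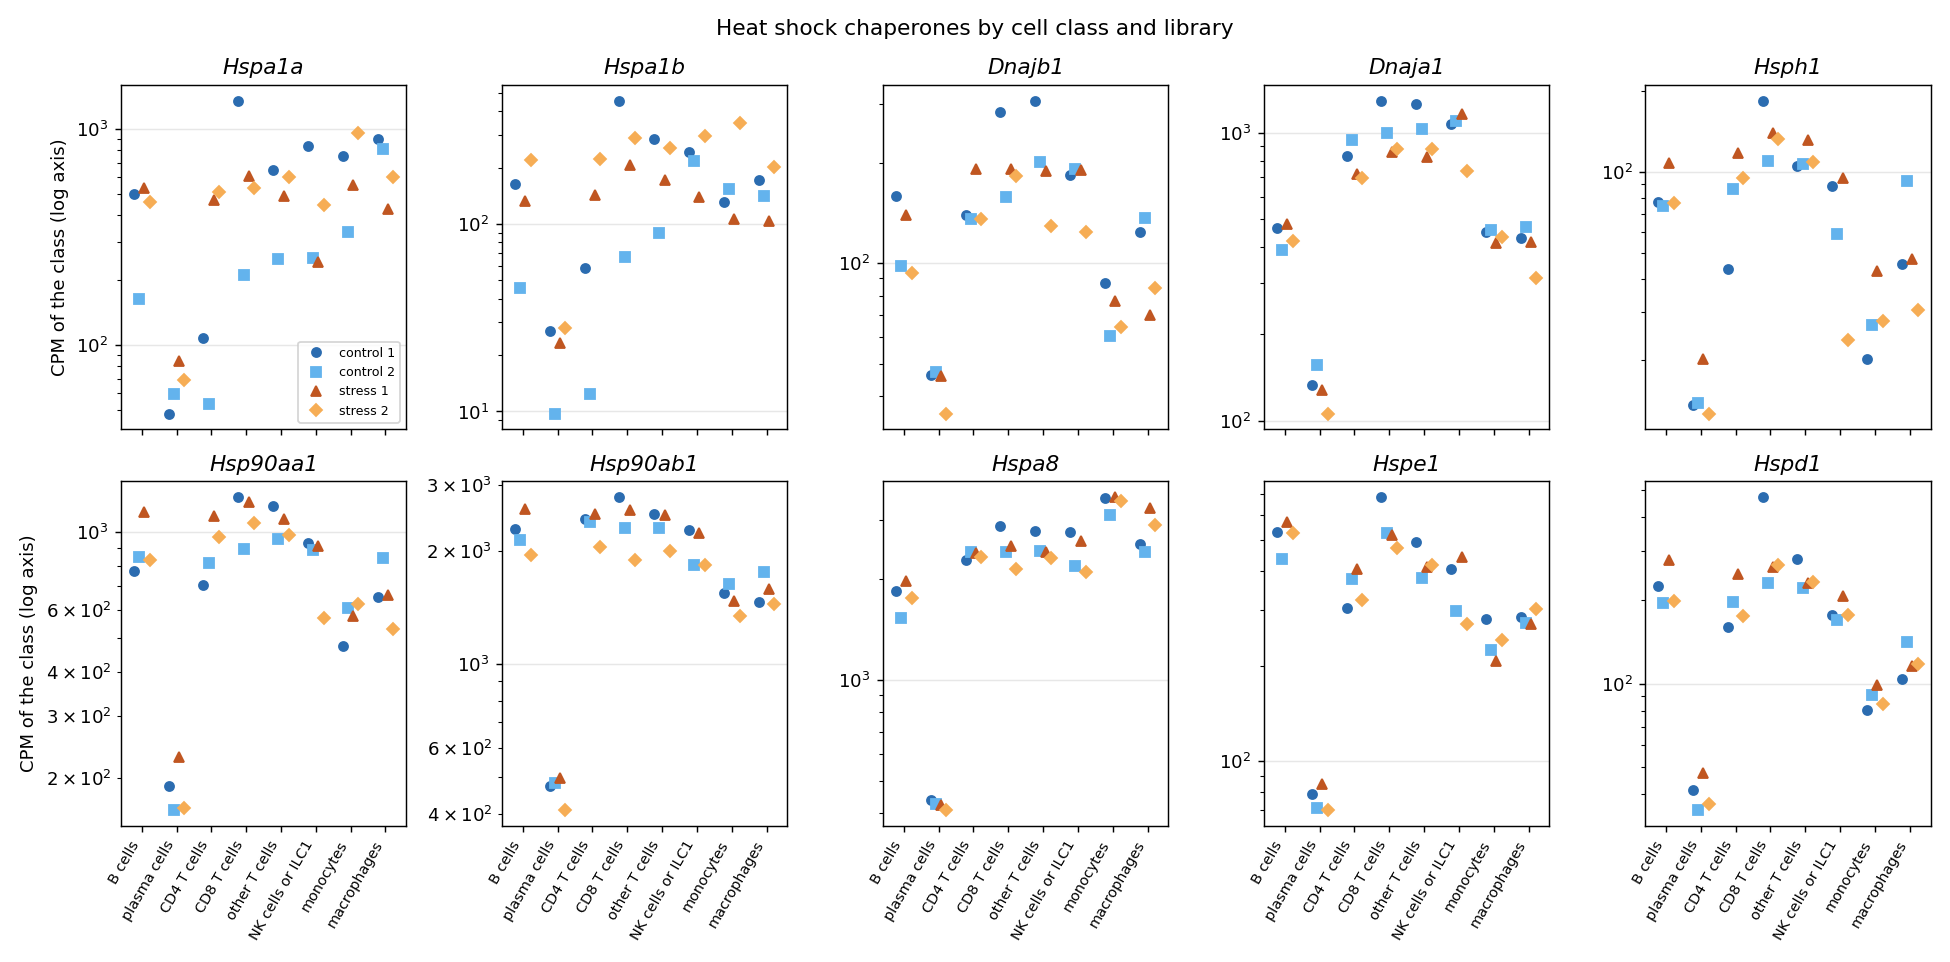
Level of each chaperone in CPM of the class (log axis) for 8 cell classes, with one point for each of the 4 libraries. Plasma cells lie lowest for each gene in the mean, Hspa8 is highest in monocytes at 3096 to 3506 CPM, and the spread between libraries is widest for Hspa1a and Hspa1b.

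The 2 inducible Hsp70 genes varied widely between libraries. Hspa1a in CD8 T cells was 1354 CPM in control 1, 211 in control 2, 605 in stress 1 and 534 in stress 2. Both control libraries thus lay outside the range of the stress libraries, one above and one below. The order of the classes by mean ran from macrophages at 684 ± 215 CPM (SD, n = 4) through CD8 T cells at 676 ± 484 to CD4 T cells at 285 ± 238 and plasma cells at 65.3 ± 15.4. Each class overlapped with the next in that order, CD4 T cells and plasma cells included. In contrast, Hspa8 in CD4 T cells stayed between 2276 and 2401 CPM in the 4 libraries.

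Stress was compared with control in each class to ask whether the chaperones differ after restraint. One member passed in one class: Hspa1a, the inducible Hsp70, in CD4 T cells. Its level was 108 CPM in control 1 and 53.7 CPM in control 2, and 470.5 and 509 CPM in stress 1 and stress 2. Both stress libraries were above both controls, with means of 490 ± 27.0 and 80.7 ± 38.2 CPM (SD, n = 2 each). The log2 change was 2.58 (SE 0.29, edgeR adjusted p = 0.0066), in a class where 0.128% of 7840 genes passed. The counts behind it were 37 and 82 UMIs in the controls and 534 and 634 UMIs in the stress libraries, from 101, 418, 449 and 240 cells. Across 13 alternatives the log2 change of Hspa1a in CD4 T cells lay between 2.11 and 2.98 and passed in all 13.

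Hspa1b, its near copy, had a similar change in CD4 T cells that did not pass. It was 58.2 and 12.5 CPM in the controls and 143 and 223 CPM with stress, and the groups did not overlap. The log2 change was 2.69 with an SE of 0.63 (edgeR adjusted p = 0.398), against 2.47 with DESeq2, where it passed (adjusted p = 0.00461). It passed in 6 of 13 alternatives, and leaving out a library moved it to 1.58 without control 2 and to 3.66 without control 1. The other 8 members in CD4 T cells had log2 changes from -0.47 for Dnaja1 to 0.41 for Hsph1, and none passed. Dnajb1, a J protein induced with Hspa1a by heat shock factor 1, was 140 and 136 CPM in the controls and 191 and 136 CPM with stress. Hspa8 was 2276 and 2401 CPM in the controls and 2395 and 2328 CPM with stress, so those groups overlapped. Both stress libraries lay above both controls for 4 of the 10 members in CD4 T cells (Hspa1a, Hspa1b, Hsph1 and Hsp90aa1), as for 28.2% of all genes tested, and below both for 1, Dnaja1, as for 10.3%. The median log2 change of the 10 in CD4 T cells was 0.09, beside -0.01 over all genes tested.

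The rest of the pathway in CD4 T cells gave no call. None of 10 Hsp90 co-chaperones, 7 other J proteins, 5 exchange factors, 4 relatives in the endoplasmic reticulum and mitochondria, 7 chaperonin subunits or 2 heat shock factors passed there. Of all 7840 genes tested in the class 0.128% passed, and at that share lists this short would usually hold no call. The 13 immediate early genes that could be tested, which respond within minutes to signals and to tissue digestion, had a median log2 change of -0.02, and none passed. Jun was 1.04 (SE 0.31, edgeR adjusted p = 0.417). The 10 genes that passed in this class included the plasma cell transcripts Igha (2.79), Jchain (2.42), Igkc (2.52) and Iglc1 (2.28). The others beside Hspa1a were the granzyme genes Gzma (5.65) and Gzmc (-4.27), the chemokine receptor gene Ccr1 (3.47), the chemokine gene Cxcl3 (2.38) and Rgcc (-1.93). Stress libraries held 854 and 537 plasma cells against 178 and 106 in controls. Plasma cells themselves had 48.3 to 84.7 CPM of Hspa1a, and with the immunoglobulin genes left out the log2 change of Hspa1a in CD4 T cells was 2.58. Markers of CD4 subsets also differed between the controls: the naive cell gene Ccr7 was 169 CPM in control 1 and 689 in control 2, against 186 and 168 with stress. Maf, an effector gene, was 498 and 225 CPM in the controls and 767 and 919 with stress (log2 change 1.14, edgeR adjusted p = 0.375). None of the 15 subset markers passed, with log2 changes from -1.50 for Ccr7 to 1.31 for Cxcr5. The part of these subset markers, and of the plasma cell, granzyme and chemokine transcripts, in the Hspa1a result was not tested.

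In the other 7 classes and in all kept cells together, 0 of the 10 members passed in edgeR and 0 in DESeq2. The share of all genes that passed was 0% in all kept cells and in other T cells, 0.271% in B cells, 0.562% in plasma cells, 0.0497% in CD8 T cells, 0.117% in NK cells or ILC1, 0.159% in monocytes and 1.33% in macrophages. At an unadjusted p below 0.05 there were 2 members each in plasma cells, other T cells and macrophages and 0 elsewhere. At the same threshold there were 977 of all 9072 genes tested in plasma cells, 530 of 8042 in other T cells and 830 of 6892 in macrophages. The Hspa1a change was negative, opposite to CD4 T cells, in macrophages, CD8 T cells (-0.48) and NK cells or ILC1 (-0.55), and none passed. It was positive in the other classes. Macrophages had the highest Hspa1a on average. Hspa1a there was 903 and 811 CPM in the controls and 425 and 597 CPM with stress, and the groups did not overlap. Its log2 change was -0.82 (SE 0.22, edgeR adjusted p = 0.141). Dnajb1 in macrophages was 124 and 137 CPM in the controls and 70.0 and 84.2 CPM with stress, a log2 change of -0.81 (SE 0.22, edgeR adjusted p = 0.144). Both stress libraries lay below both controls for 3 of the 10 members in macrophages (Hspa1a, Dnajb1 and Dnaja1), as for 16.4% of all genes tested, and above both for 1, Hspa8, as for 25.2%. Of 13 immediate early genes tested in macrophages, 2 passed, both lower with stress: Egr1 (-2.08, edgeR adjusted p = 0.00383) and Jun (-1.03). Another 2 of the 13 had positive changes. Among 6 other J proteins 1 passed, Dnajb9 (-1.04), and 3 had positive changes. All 7 chaperonin subunits tested had positive changes, as had 3429 of all 6892 genes tested in macrophages, and 0 passed. In the other classes, from 0 of the 7 (CD4 and CD8 T cells) to 6 (B cells and NK cells or ILC1) had positive changes.

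Whether the change with stress differed between classes was tested as 1 term over the 8 classes. None of the 10 members passed, where 0.864% of 9722 genes did. Hspa1a had the smallest p of the 10, 0.00998, with an edgeR adjusted p of 0.24. The call in CD4 T cells alone is therefore not shown to differ from the other classes. With no filter on low counts Hspa1a and Hspa1b passed this test, and without control 1 only Hspa8 did.

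In B cells Hspa1a was 499 CPM in control 1, 164 in control 2, 535 in stress 1 and 459 in stress 2. Control 1 lay within the stress range, and the log2 change was 0.54 (SE 0.62, edgeR adjusted p = 0.808). Hspa1b in B cells was 164 and 45.3 CPM in the controls and 133 and 219 CPM with stress, a log2 change of 0.75 (SE 0.87). Without control 1 the log2 changes were 1.52 for Hspa1a and 1.87 for Hspa1b. In CD8 T cells leaving out control 1 gave 1.23 for Hspa1a, and leaving out control 2 gave -1.27. The direction in CD8 T cells thus rested on which control library was used. Without control 1 the Hspa1a change was 0.95 in other T cells and 1.18 in monocytes, and without control 2 it was -1.21 in NK cells or ILC1. Control 2 was the lowest library for Hspa1a in B cells, in the T cell classes and in monocytes, but not in plasma cells, NK cells or ILC1 or macrophages.

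**Figure D2:**
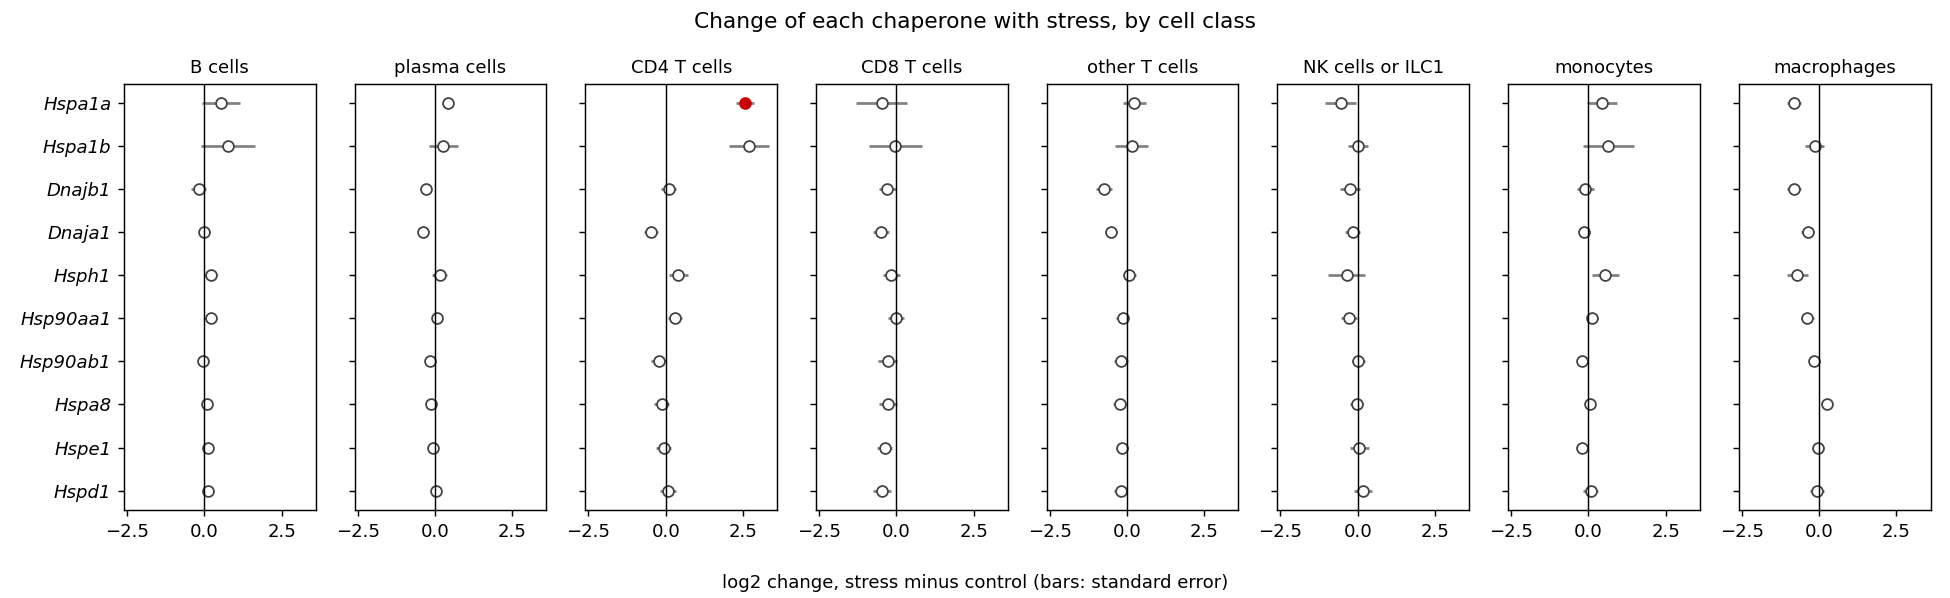
Log2 change of each chaperone with stress in 8 cell classes from edgeR fits of 2 stress against 2 control libraries, with standard errors. Only the filled point passed an adjusted p of 0.05: Hspa1a in CD4 T cells at 2.58.

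Most UMIs of Hspa1a and Hspa1b came from a minority of the cells in each of the 8 classes. A cell was called high when it held at least 3 UMIs of the 2 genes together and at least 10 per 10000 UMIs. Among B cells 80.1%, 92.7%, 77.8% and 62.7% held no Hspa1 UMI in control 1, control 2, stress 1 and stress 2. A cell with no UMI at this depth may still express the genes. High cells numbered 109, 104, 517 and 350 in those libraries, 1080 of 9152 B cells, and carried 87.5% to 92.7% of the B cells' Hspa1 UMIs. Over the 8 classes and 4 libraries high cells were 1.12% to 31.4% of a class and carried 53.0% to 96.8% of its Hspa1 UMIs. The cut fell within a continuous range: 108 high cells held exactly 3 UMIs, 50 lay between 10 and 12 per 10000, and 45 cells lay just under the rate limit, between 8 and 10.

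The share of high B cells was 12.5% in control 1 (exact 95% binomial interval 10.4% to 14.9%), 3.70% in control 2 (3.03% to 4.46%), 14.0% in stress 1 (12.9% to 15.2%) and 19.6% in stress 2 (17.8% to 21.6%). Both stress libraries were above both controls, with means of 16.8 ± 3.97% and 8.12 ± 6.25% (SD, n = 2 each). The difference was 8.71 percentage points (two-sided exact permutation p = 0.333, the smallest that 2 against 2 libraries can give). The intervals cover counting error only, and those of control 1 and stress 1 overlap. After thinning every cell to 1000 UMIs, with 16, 118, 359 and 35 shallower B cells left out, the share with at least 2 Hspa1 UMIs was 11.6%, 3.30%, 13.6% and 15.3%. The level within high cells did not follow the share. High B cells held 4282 and 4508 CPM of Hspa1a in the controls and 4343 and 2611 in the stress libraries, a description since Hspa1a chose them. Their median Hspa1 UMIs were 9, 10, 8 and 9 a cell in control 1, control 2, stress 1 and stress 2. Their median depth was 2238, 2395, 1635 and 3112.5 UMIs, and the part of depth in the level was not tested.

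Among CD4 T cells the high share was 5.94% and 2.63% in the controls and 14.9% and 18.8% with stress. That was 6 of 101, 11 of 418, 67 of 449 and 45 of 240 cells, and after thinning 3.12%, 1.93%, 13.8% and 15.5%. Over the libraries the exact permutation test gave p = 0.333, the smallest that 2 against 2 libraries can give. The binomial intervals cover counting error only, not the spread between libraries. The control 2 interval lay below those of both stress libraries. That of control 1 (2.21% to 12.5%) overlapped with that of stress 1 (11.8% to 18.6%). CD8 T cells had 31.4% and 7.32% in the controls and 21.8% and 23.2% with stress, and macrophages 16.5% and 16.7% against 11.1% and 16.4%. Plasma cells had 1.12% and 2.83% in the controls and 3.75% and 3.35% with stress. After thinning these were 2.25% and 4.72% against 3.04% and 2.61%, so that the mean was then lower with stress.

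**Figure D3:**
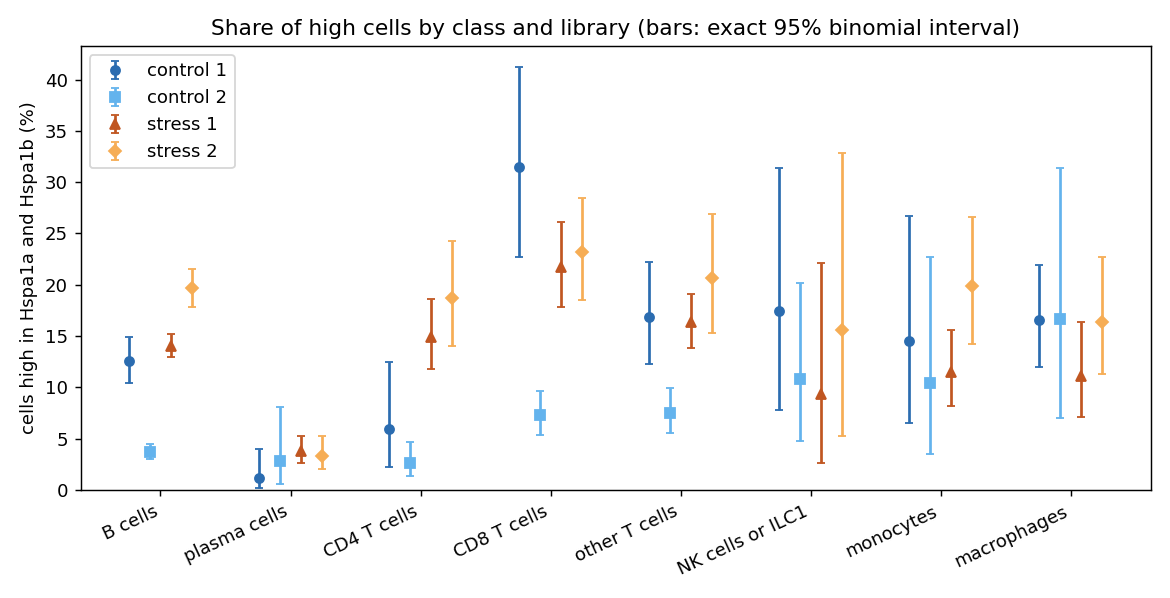
Share of cells high in Hspa1a and Hspa1b in 8 classes and 4 libraries, in percent, with exact 95% binomial intervals that cover counting error only. In CD4 T cells the controls are at 5.94% and 2.63% and the stress libraries at 14.9% and 18.8%, and in CD8 T cells control 1 is the highest library at 31.4%.

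B cells with high Hspa1a and Hspa1b were also high in the other 8 chaperones, which the choice of cells did not use. Each of the 8 was higher than in the other B cells in 4 of 4 libraries and passed, where 8.76% of 8130 genes were higher and 8.14% lower. The fit kept the library as a block, and the median of the 8 log2 differences was 1.498, beside 0.01 over all genes tested. Dnajb1, the J protein that works with inducible Hsp70, differed most. It was 700, 646, 509 and 278 CPM in the high cells of control 1, control 2, stress 1 and stress 2, and 91.1, 78.8, 90.6 and 57.8 CPM in their other B cells. All values of the high cells lay above all those of the others, and the log2 difference was 2.73 (SE 0.10, edgeR adjusted p = 1.2e-23).

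Hsph1 followed at 236, 342, 306 and 174 CPM in high cells against 57.8, 65.5, 82.2 and 57.8 CPM, a log2 difference of 2.01 (SE 0.10). Dnaja1 was 1195, 1486, 1197 and 887 CPM against 376, 354, 389 and 330 CPM, a difference of 1.77 (SE 0.07). For Hsp90aa1 the high cells held 1911, 2936, 2878 and 1635 CPM against 634, 778, 909 and 676 CPM, a difference of 1.69 (SE 0.07). These genes showed no overlap between high and other cells, and how many of all genes did likewise was not counted. The constitutive members differed less: Hspa8 by 1.25 (SE 0.06) and Hsp90ab1 by 0.85 (SE 0.05). Hsp90ab1 was 3818, 3788, 4108 and 2713 CPM in high cells and 2091, 2085, 2393 and 1807 CPM in the others. The mitochondrial pair lay close to Hspa8, with Hspe1 at 1.31 (SE 0.08) and Hspd1 at 1.22 (SE 0.09). Hspa9, the mitochondrial Hsp70, was -0.33 and did not pass.

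Among the other genes of the pathway, calls were mixed within most lists. Of 10 Hsp90 co-chaperones 6 were higher in high B cells, led by Ahsa1 (1.52), which stimulates the Hsp90 ATPase, and including Cacybp (1.12), Chordc1 (1.11) and Stip1 (0.66), the adaptor between Hsp70 and Hsp90. Among 6 other J proteins tested, Dnajb4 (1.45) and Dnajb9 (0.73) were higher. The Hsp110 relatives went apart: Hspa4l was higher (1.19, SE 0.21) and Hspa4 lower (-0.64, SE 0.10). Only Cct7 of the 7 chaperonin subunits (0.30) and Hspa5 of the 4 relatives of other compartments (0.29) were higher. Neither factor passed: Hsf1 was -0.29 and Hsf2 -0.07. Hspb1, a small heat shock protein, was too low to be tested, at 31.5, 27.2, 19.8 and 4.88 CPM in high cells and 0.49, 0, 1.69 and 1.40 CPM in the others.

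All 14 immediate early genes were higher in the high B cells, with a median log2 difference of 1.38. Jun differed by 3.20 (SE 0.34), with 2005, 2007, 1988 and 1207 CPM against 218, 124, 223 and 253 CPM. Fos was 1628, 1427, 1284 and 751 CPM against 360, 262, 238 and 139 CPM, a difference of 2.46 (SE 0.07). Dusp1 (2.04), Atf3 (1.87) and Zfp36 (1.64) followed, and Nr4a1 was the smallest at 0.67. These genes are also induced by enzyme digestion of tissue, whose part in the high cells was not tested. The gene with the smallest p was Klf2 (2.66, SE 0.07), a factor of resting lymphocytes, and Cd83, Gpr183, Ier5, Ppp1r15a and Klf6 were among the 10 higher genes with the smallest p once the 10 chaperones were set aside.

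Among the lower genes with the smallest p, Mki67, a marker of dividing cells, was 43.2, 0, 33.7 and 18.7 CPM in high cells and 96.5, 52.4, 245 and 172 CPM in other B cells, a log2 difference of -2.74 (SE 0.19). Hist1h1b was -2.80, Top2a -1.92, Stmn1 -1.85, Basp1 -1.82, Hmgb2 -1.40, H2afz -1.20 and Txn1 -1.10. Rgs13, a germinal centre gene, was -2.28 (SE 0.20). Each of these was lower in 4 of 4 libraries.

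High and other B cells were compared for depth and quality. Their median UMIs were 2238 and 2146.5 in control 1, 2395 and 2343 in control 2, 1635 and 1716.5 in stress 1, and 3112.5 and 3447.5 in stress 2. Median mitochondrial shares were 5.62% and 6.00%, 6.35% and 6.98%, 6.78% and 7.26%, and 6.74% and 7.00%, lower in the high cells in 4 of 4 libraries. Cells marked as likely doublets were 0.29% to 3.29% of the high cells and 0.66% to 2.40% of the others. All 8 members passed in each alternative but 1, in which the stress libraries were fitted alone and Hspa8 did not pass (1.13, edgeR adjusted p = 0.185).

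**Figure D4:**
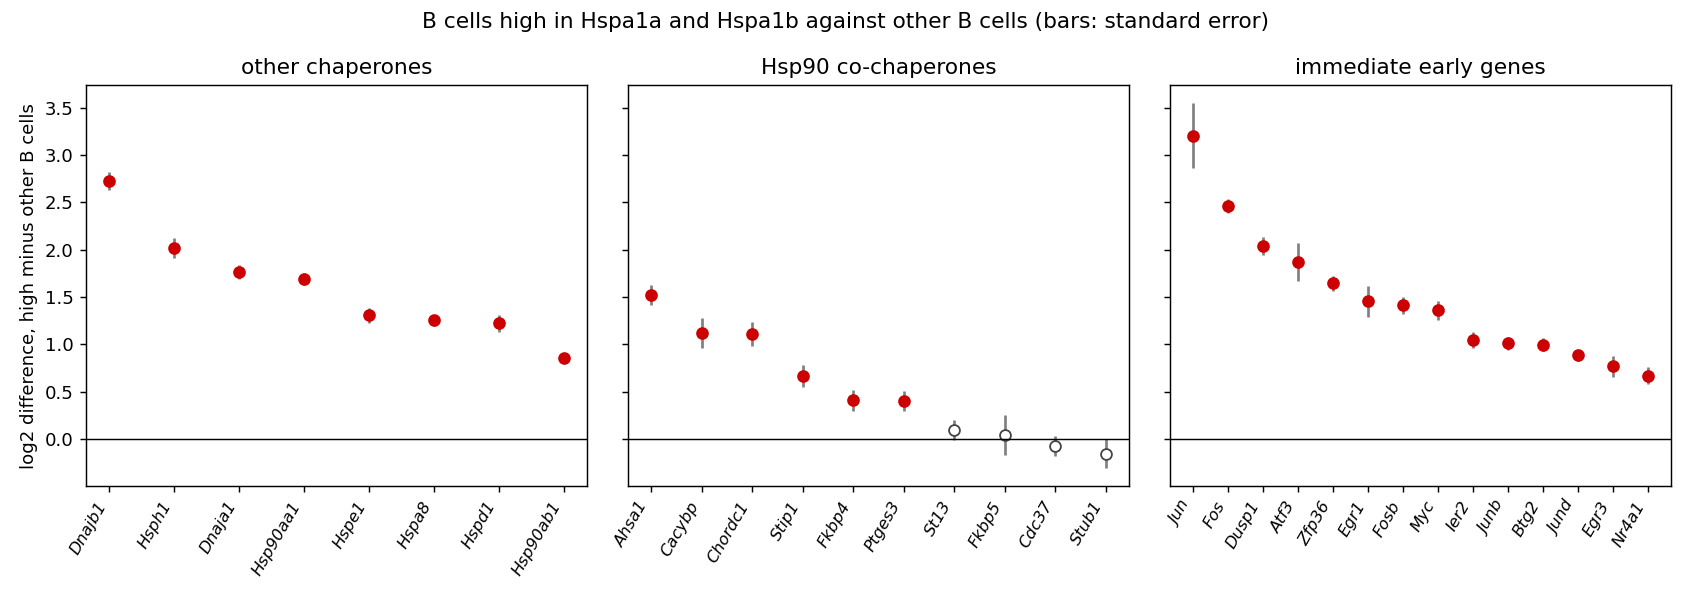
Log2 difference between high and other B cells for the 8 other chaperones, 10 Hsp90 co-chaperones and 14 immediate early genes, with standard errors from the edgeR fit with library as a block. Filled points passed an adjusted p of 0.05, which were 8 of 8, 6 of 10 and 14 of 14.

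Genes whose level followed that of Hspa1a and Hspa1b across classes and libraries were ranked by Pearson correlation over 32 sums (8 classes in 4 libraries, which share libraries and depth). Outside the members Abi3 was the most alike at 0.88, rank 3 of 9722 genes, then Dok1 and Ahr at 0.84 and Gngt2 at 0.83. The sums include those of plasma cells, which were lowest in CPM for each chaperone, and their part in these correlations was not tested. Psme1, Vps29, Ccl4, Cox8a, Atp6v1f and Trappc3 lay between 0.81 and 0.82. The other chaperones were less alike over these sums: Hspa8 ranked 138th of all genes at 0.75, Dnajb1 was at 0.53, and Hsph1 was the lowest member at 0.48.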

How the data were processed

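Colon leukocytes from 2 control and 2 stress libraries were analysed from the authors' deposited UMI counts per gene and barcode. The submitters' processing notes name Cell Ranger 5.0 and mm10, and the matrix header gives software version 3.1.0. Barcodes under 500 UMIs or above 10% mitochondrial UMIs were dropped. Cells were gated on marker genes (at least 3 markers of a class, 5 for plasma cells, 4 for monocytes, macrophages and plasmacytoid dendritic cells), and cells meeting 2 lineages were left unassigned. T cells were then split by any UMI of Cd4 or Cd40lg, or of Cd8a or Cd8b1. The alternative with 1 more marker in the gate did not tighten this split. Doublets were scored with Scrublet (scanpy 1.11.5) and left out only as an alternative.

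Counts were summed by class and library where every library held at least 30 cells, and tested with edgeR 4.0.16 (TMM, quasi-likelihood, Benjamini-Hochberg over all genes tested) in R 4.3.3. DESeq2 1.42.0 was an alternative. Stress was compared with control within a class, each class with the mean of the others, and high with other B cells with the library as a block. Other T cells were added to the classes after the counts were seen. All 10 members are named, and other genes by list or smallest p, up to 4 a list. The members, lists and tests were chosen with earlier results of these data known. Subset markers of CD4 T cells were listed after the Hspa1a result was seen, and Jun, Atf3 and Nr4a1 in high B cells and the other called genes and Jun in CD4 T cells were named after their values were seen. The scripts were tested on simulated data. Some genes with small p are not reported here.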

Additional observations from a re-analysis of the deposited data

How the results depend on the processing

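With 2 libraries a group, 1 library decided many calls. The number of the 10 members that passed with stress, leaving out each library in turn, ranged from 0 to 2 in all kept cells, 0 to 2 in B cells, 1 to 3 in CD4 T cells, 0 to 2 in CD8 T cells, 0 to 2 in other T cells, 0 to 1 in NK cells or ILC1, 0 to 1 in monocytes and 0 to 2 in macrophages, and stayed at 0 in plasma cells. Hspa1a and Hspa1b reversed in CD8 T cells without control 1, to 1.23 and 1.68, and were -1.27 and -0.90 without control 2. A lone library left in a group was assumed to vary like the others. With DESeq2, 2 members passed in CD4 T cells, and with no filter on low counts 2 passed in CD4 T cells and 1 in macrophages. In the test of the stress effect between classes, 2 members passed with no filter, and leaving out a library gave 0 to 1. For the cell classes, 37 to 51 of the 80 pairs passed over the alternatives that fitted all 8 classes, and 44 of 70 with 1 more marker in the gate. The share of high B cells differed by 4.29 to 13.1 percentage points leaving out each library.

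The labels do not say whether the replicate numbers pair the libraries. The correlation of deviations of libraries with the same number ran from -0.20 to -0.01 over the classes. With 2 libraries a group this cannot decide whether they were paired. With the replicate number as a block, 1 member passed in CD4 T cells and 0 in each other class, as without it, while genes called went from 28 to 179 in B cells, from 10 to 36 in CD4 T cells and from 10 to 63 in monocytes. With crossed numbers, an alternative chosen after seeing the data, 2 members passed in B cells, 2 in CD4 T cells and 1 in macrophages. Calls over all genes rose there too, from 28 to 405 in B cells, from 10 to 139 in CD4 T cells and from 92 to 243 in macrophages. NK cells or ILC1 were not fitted with 1 more marker in the gate or with at most 5% mitochondrial UMIs, since a library then held under 30 cells. Depth limits low members in small classes, such as Hsph1 in NK cells or ILC1.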

Other observations

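Classes with under 30 cells in a library gave values only. In ILC2, innate lymphocytes of type 2, Dnaja1 was 1603 and 1250 CPM in the controls and 1213 and 1757 CPM with stress. Hspa1a in ILC2 was 131, 103 and 115 CPM in control 1, control 2 and stress 1 and 0 in stress 2, from 73, 49, 26 and 17 cells. In cDC1, dendritic cells that present to CD8 T cells, Hspa1a was 799 and 505 CPM in the controls and 806 and 472 CPM with stress, and in cDC2 229 and 592 CPM against 753 and 1103 CPM. Hspa8 was 2921 to 3345 CPM in cDC1 and 2220 to 3114 CPM in cDC2.

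Barcodes over 10% mitochondrial UMIs, which were left out, were high in Hspa1a and Hspa1b in 4.49% and 1.61% of control 1 and control 2 and in 9.76% and 5.85% of stress 1 and stress 2. Among all kept barcodes of those libraries the shares were 13.2%, 4.83%, 13.2% and 15.9%. The levels did not all go the same way. Hspa1a was 130, 71.4, 428 and 274 CPM in left-out barcodes and 404, 184, 342 and 294 CPM in kept ones. Hspa1b was 51.9, 29.9, 122.5 and 153 CPM in left-out barcodes and 121, 54.2, 89.8 and 124.5 CPM in kept ones.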
